A study of Xenopus laevis with 24 samples.

Results

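Dorsal marginal zone (DMZ) explants of Xenopus laevis at stages 13 and 14 were compared with DMZ explants at stages 12 and 12.5, the interval in which the late gastrula becomes an early neurula. The libraries were chosen by stage label alone, and they number 8 of the 24 in the series: 2 at stage 13 and 2 at stage 14, against 2 at stage 12 and 2 at stage 12.5. The 2 libraries of a stage carry the replicate numbers 1 and 2, which entered the model as a block. The labels name no mutation, transgene or added agent for any group. The series holds 20 DMZ libraries of stages 11 to 18 plus 2 ventral marginal zone (VMZ) and 2 animal cap libraries of stage 11. Per the labels' protocols, the dorsal explants were cut at stage 10.5 and cultured in Steinberg's solution, and 5 or 6 of them were pooled for each time point when sibling embryos reached the stage. The stage of a library is therefore that of whole siblings, and an explant library averages over tissues of unlike fate.

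The dorsal marginal zone is the ring segment that holds the Spemann organizer. In a Keller explant it is cultured flat, so that the mesoderm lengthens by convergent extension beside neural ectoderm that lies in the same sheet. During gastrulation the organizer lays down notochord and somite precursors and induces the neural plate. Around the start of neurulation the plate is divided along its length into forebrain, midbrain, hindbrain and spinal cord territories, hox genes are switched on in the trunk, and maternal transcripts are being cleared.

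The 8 libraries held 21.9 to 37.2 M counts each, and 31349 of the 31694 gene models passed the filter on low counts. Levels are given as CPM, counts relative to the scaled library total, and log2 fold changes are stages 13 and 14 over stages 12 and 12.5. The replicate numbers were offset from each other. On the first principal component of the 8 libraries, which held 45.5% of the variance, the libraries of number 1 lay at 66.7 at stage 13 and 79.9 at stage 14, against 22.3 at stage 12 and 58.2 at stage 12.5. The libraries of number 2 lay at -48.4 at stage 13 and -6.3 at stage 14, against -90.6 at stage 12 and -81.8 at stage 12.5. The score rose with stage within each number, but every library of number 1 lay above every library of number 2. The labels do not say whether a number marks a shared clutch or day. The p-values rest on a spread estimated from all 24 libraries of the series fitted together, not from the 8 alone, and that spread may be technical.

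Between the 2 pairs of stages, 10 of 47 anterior neural, 4 of 8 cement gland and 22 of 52 hox gene models rose and none of them fell, while 10 of 50 oocyte and 11 of 91 cell cycle gene models fell and none rose. In all, 571 gene models were higher at stages 13 and 14 (1.82% of those tested) and 1058 were lower (3.37%), 5.2% together, at an adjusted p under 0.05 in edgeR's quasi-likelihood test. The smallest adjusted p was 0.00434. The changes were mostly modest: 262 of the higher and 290 of the lower gene models moved by 2-fold or more, with a median of 1.91-fold for the higher ones and 1.7-fold for the lower ones. The 4 libraries of stages 13 and 14 all lay above the other 4 for 253 of the 571 (44.3%), and all below for 325 of the 1058 (30.7%). Over all gene models tested, this was so for 1113 (3.55%) above and 977 (3.12%) below. Each of the 571 was higher in both replicate numbers, and 1057 of the 1058 were lower in both. For called genes, separation and agreement in sign were read on the libraries that made the calls, and are no independent support.

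The number of calls rested on single libraries. It was 1227 without stage 12 replicate 1, 129 without stage 12 replicate 2, 1901 without stage 12.5 replicate 1 and 12 without stage 12.5 replicate 2. It was 34 without stage 13 replicate 1, 702 without stage 13 replicate 2, 853 without stage 14 replicate 1 and 62 without stage 14 replicate 2. No called gene changed direction in any of these fits, but the genes had been called with all 8 libraries, so this is no independent support. Without the replicate block 74 gene models were called, and of the members of the 34 lists 1 hindbrain and 1 early neuron gene model. The call survived each of the 8 omissions for 11 gene models, 8 of them lower: g6pc.L, jak3.L, ppp2r2b.L, ptdss2.L, tpte2.L, gnai1.S, LOC445857 and LOC108704099. The 3 higher ones were hoxb9.S, enc1.S and LOC108700423. These 11 were singled out after their values were seen. Among them gnai1.S, an inhibitory G protein alpha subunit, averaged 65.4 CPM at stages 13 and 14 against 113 CPM at stages 12 and 12.5. Phosphatidylserine synthase 2 (ptdss2.L) averaged 44.96 CPM at stages 13 and 14 against 94.6 CPM, and enc1.S, which encodes an actin-binding kelch protein, 25.2 CPM against 10.02 CPM. The adjusted p of the 11 reached at most 0.0483 when 1 library was left out. None of the 11 was called by edgeR on the 8 libraries alone with a coefficient per pair of stages (adjusted p 0.0525 to 0.0847). Without the replicate block, hoxb9.S, jak3.L, gnai1.S and LOC108704099 were not called (adjusted p 0.113, 0.167, 0.0798 and 0.206).

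**Figure D1:**
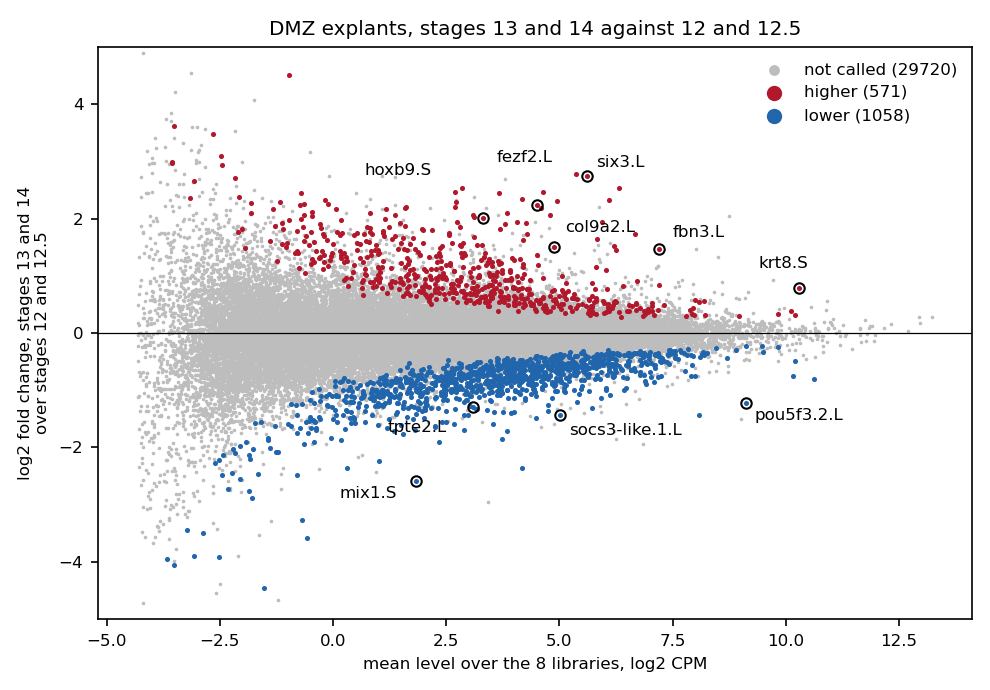
Each point is a gene model, with its mean level over the 8 libraries (log2 CPM) on the x axis and its log2 fold change, stages 13 and 14 over stages 12 and 12.5, on the y axis; models under 0.05 CPM or beyond 5 on the y axis are not drawn. Red points are the 571 called higher, blue points the 1058 called lower and grey points the rest, and the rings mark genes described in the text.

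Transcription factors of the forebrain, eye field and anterior plate rose by up to several fold. Of the 47 tested, 10 rose and none fell: six3.L, rax.L, fezf2.L, dmbx1.L, arx.L and both copies of pax6 and hesx1, with six3.S. The median log2 fold change of the list was 0.625, against -0.009 over all gene models. The homeobox gene six3.L, which specifies forebrain and eye field, had 45.6 and 75.1 CPM at stage 13 and 50.9 and 149 CPM at stage 14, against 0.73 and 7.35 CPM at stage 12 and 36.7 and 26.6 CPM at stage 12.5 (replicates 1 and 2 of each). All 4 later libraries lay above all 4 earlier ones, and the change was 2.75 ± 0.57 on the log2 scale (SE, adjusted p = 0.0207). Its S copy changed by 2.53 ± 0.60 (adjusted p = 0.0321), likewise without overlap.

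The eye field homeobox gene rax.L had 20.8 and 15.8 CPM at stage 13 and 22.7 and 112 CPM at stage 14, against 1.24 and 6.88 CPM at stage 12 and 13.7 and 5.09 CPM at stage 12.5. The groups did not overlap, but stage 14 replicate 2 stood far above the other libraries (log2 fold change 2.47 ± 0.58, adjusted p = 0.0319). For rax.S, with the same high library, the change of 2.70 ± 0.74 was not called (adjusted p = 0.0533). The zinc finger gene fezf2.L of the forebrain had 20.4 and 29.6 CPM at stage 13 and 22.7 and 69.5 CPM at stage 14, against 0.59 and 5.85 CPM at stage 12 and 17.1 and 15.4 CPM at stage 12.5. Its groups were also separate, by 2.23 ± 0.50. For pax6.L, the paired-box regulator of eye and neural tube, the values were 34.1 and 23.7 CPM at stage 13 and 56.8 and 88.2 CPM at stage 14, against 5.48 and 5.35 CPM at stage 12 and 26.9 and 7.13 CPM at stage 12.5. Here stage 12.5 replicate 1 overlapped stage 13 replicate 2, and the change was 2.31 ± 0.44 (adjusted p = 0.0146). The earlier anterior gene otx2 did not pass the test: otx2.L averaged 284 CPM against 196 CPM (0.59 ± 0.39, adjusted p = 0.419). The count of 10 anterior genes became 12 without stage 12.5 replicate 1, 9 without stage 14 replicate 1, 5 without stage 13 replicate 2 and 3 without either stage 12 library. It became 0 without stage 12.5 replicate 2, stage 13 replicate 1 or stage 14 replicate 2.

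Of 8 cement gland and mucus gene models, 4 rose and none fell, with a median log2 fold change of 2.248. The cement gland is the mucus-secreting organ at the anterior tip of the tadpole, and its secreted product gene agr2.L had 86.3 and 61.7 CPM at stage 13 and 137 and 154 CPM at stage 14. At stage 12 it had 15.4 and 11.1 CPM, and at stage 12.5 it had 68.8 and 11.1 CPM. Only stage 12.5 replicate 1 reached the later libraries (2.32 ± 0.61, adjusted p = 0.0465). The homeobox gene pitx1.L showed the same pattern, with 60.1 and 43.2 CPM at stage 13 and 73.9 and 91.5 CPM at stage 14, against 2.08 and 5.49 CPM at stage 12 and 46.0 and 6.16 CPM at stage 12.5 (2.77 ± 0.69, adjusted p = 0.0402). The most abundant mucus genes, ag1.L and ag1.S, averaged 488 and 367 CPM at stages 13 and 14, against 233 and 152 CPM at stages 12 and 12.5, and were not called. Without 1 library the count ran from 0, where stage 12.5 replicate 2, stage 13 replicate 1 or stage 14 replicate 2 was missing, over 1, where either stage 12 library, stage 13 replicate 2 or stage 14 replicate 1 was, to 5 without stage 12.5 replicate 1.

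Hox genes, which encode homeodomain factors that set position along the body axis, made up the list with the most rises: 22 of the 52 tested were higher and none lower, with a median log2 fold change of 1.078. By paralog group, none of 8 gene models of groups 1 and 2 rose (median 0.406). Of groups 3 to 5, 6 of 16 rose (median 1.173), of groups 6 to 8, 6 of 9 (median 1.141), and of groups 9 to 13, 10 of 19 (median 1.051). Whether the anterior-most groups changed less than the others was not tested.

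The posterior gene hoxb9.S had 16.2 and 6.49 CPM at stage 13 and 26.1 and 13.7 CPM at stage 14, against 3.48 and 2.00 CPM at stage 12 and 8.59 and 2.17 CPM at stage 12.5. Within each replicate number the later libraries were higher, while stage 12.5 replicate 1 exceeded stage 13 replicate 2 (2.01 ± 0.25, adjusted p = 0.00434). Of the 22 called hox genes, 20 overlapped between the pairs of stages and hoxa3.L and hoxb6.S did not. The part of the offset between numbers in these overlaps was not tested. Within number 2 alone, hoxd10.S had 0.428 CPM at stage 13 against 0.585 CPM at stage 12. There hoxa11.L had 1.75 CPM at stage 13 against 1.88 CPM at stage 12.5. For hoxa3.L, a gene of branchial and hindbrain levels, the values were 1.49 and 0.428 CPM at stage 13 and 1.2 and 1.1 CPM at stage 14, against 0.253 and 0.0835 CPM at stage 12 and 0.331 and 0.227 CPM at stage 12.5 (2.26 ± 0.39, adjusted p = 0.0087). In hoxb7.L the change was 2.19 ± 0.43, and in hoxd9.L, with 9.53 and 2.74 CPM at stage 13 and 14.4 and 4.59 CPM at stage 14, against 2.02 and 1.23 CPM at stage 12 and 5.43 and 2.11 CPM at stage 12.5, it was 1.53 ± 0.30. In contrast hoxd1.S of group 1 averaged 13.9 CPM at stages 13 and 14 against 15.5 CPM at stages 12 and 12.5 (-0.14 ± 0.37, adjusted p = 0.871). The hox count was 19 without stage 12.5 replicate 1, 11 without stage 13 replicate 2 or stage 14 replicate 1, and 10 without stage 12 replicate 1. It was 2 without stage 12 replicate 2 and 1 without stage 12.5 replicate 2, stage 13 replicate 1 or stage 14 replicate 2.

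**Figure D2:**
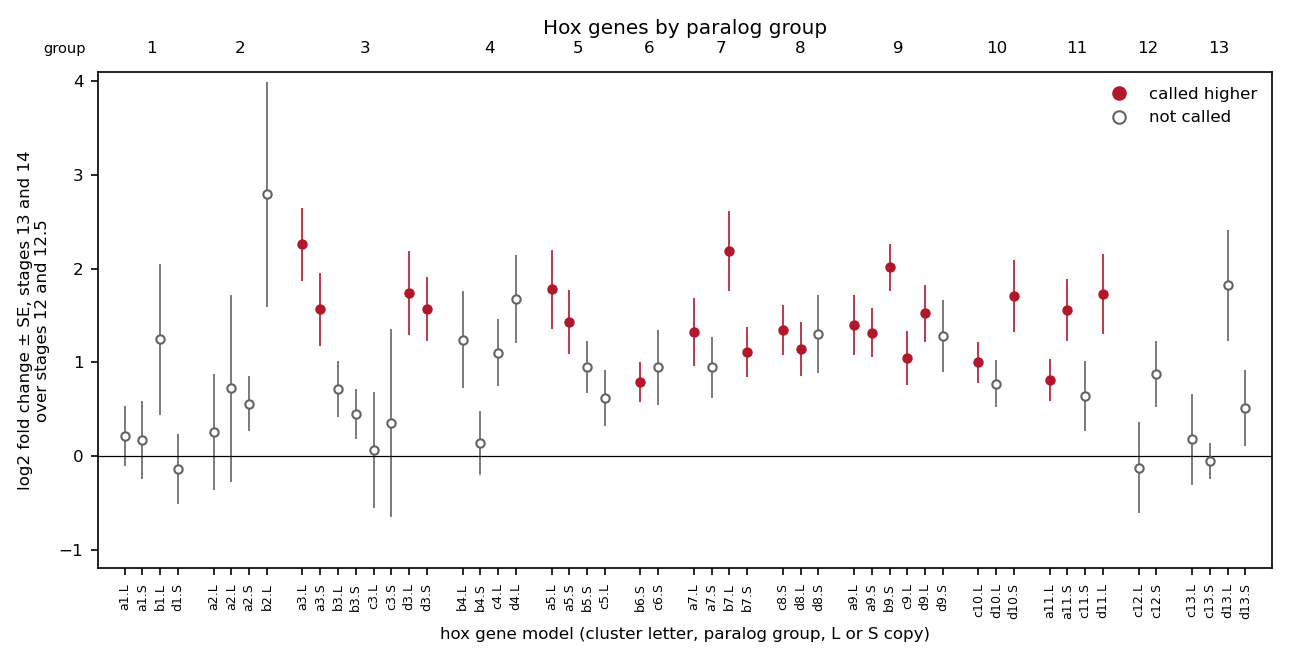
Log2 fold change (y axis, stages 13 and 14 over stages 12 and 12.5, with its SE) of the 52 hox gene models, ordered on the x axis by paralog group 1 to 13. Filled red points are the 22 called higher, open points were not called, and all red points lie in groups 3 to 11.

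Of 57 proneural and early neuron gene models 9 rose and 1 fell (median 0.280). The rises were 15.8% of the list and the fall 1.75%, against 1.82% and 3.37% over all gene models. The dihydropyrimidinase-like gene dpysl3.L, expressed in growing neurons, had 6.93 and 11.1 CPM at stage 13 and 14.2 and 21.3 CPM at stage 14, against 1.43 and 4.71 CPM at stage 12 and 5.95 and 6.55 CPM at stage 12.5. All later libraries were higher, by 1.55 ± 0.25 (adjusted p = 0.00728). Both copies of the helix-loop-helix factor ebf2 rose, ebf2.S to 4.80 and 3.96 CPM at stage 13 and 6.22 and 6.28 CPM at stage 14, against 0.955 and 1.56 CPM at stage 12 and 3.12 and 3.4 CPM at stage 12.5 (1.36 ± 0.24, adjusted p = 0.00871). Both gene models named isl1.L, a LIM homeobox gene of motor and sensory neurons, both copies of the tubulin gene tubb2b, the synaptic vesicle fusion gene snap25.L and the differentiation factor neurod4.L were the other rises. The kinase gene pak3.S was lower (-0.74). Proneural neurog2.L and the neuronal RNA-binding protein gene elavl3.L averaged 4.74 and 47.4 CPM at stages 13 and 14, against 6.57 and 54.1 CPM at stages 12 and 12.5, and neither was called. The 9 rises became 10 without stage 12.5 replicate 1, 9 without stage 13 replicate 2, 6 without stage 14 replicate 1, 5 without stage 12 replicate 1, 3 without stage 12 replicate 2, 2 without stage 14 replicate 2, 1 without stage 13 replicate 1 and 0 without stage 12.5 replicate 2.

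Of 57 neural progenitor gene models of the plate, 3 rose and none fell: pou3f1.L, dbx1.S and nkx6-2.S, all encoding homeodomain factors. These were 5.26% of the list, against 1.82% over all gene models. The general neural plate factors were not called: sox3.L averaged 473 CPM against 421 CPM (0.14 ± 0.19), and the larger gene model named sox2.L averaged 224 CPM against 201 CPM (0.16 ± 0.18). Of 28 midbrain and hindbrain gene models, 3 rose (10.7%). The isthmus gene pax2.L had 3.05 and 2.67 CPM at stage 13 and 8.62 and 10.7 CPM at stage 14, against 0.843 and 1.03 CPM at stage 12 and 3.31 and 1.59 CPM at stage 12.5 (1.81 ± 0.27, adjusted p = 0.00628). Stage 14 held its highest libraries, and stage 12.5 replicate 1 overlapped stage 13.

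The other 2 hindbrain calls were both copies of cyp26c1, which encodes an enzyme that breaks down retinoic acid. For cyp26c1.L the values were 89.8 and 104 CPM at stage 13 and 86.6 and 151 CPM at stage 14, against 12.8 and 33.7 CPM at stage 12 and 71.8 and 62.1 CPM at stage 12.5, with no overlap (1.45 ± 0.27, adjusted p = 0.0135). They were also the 2 calls among 34 retinoic acid genes, 5.88% of that list against 1.82% over all gene models. The sister enzyme cyp26a1.L, by contrast, averaged 117 CPM against 113 CPM (0.05 ± 0.30), and the synthesis enzyme aldh1a2.L averaged 53.1 CPM against 63.3 CPM (-0.27 ± 0.40). The difference between these enzymes was not tested. Of 51 neural crest and border gene models, snai2.S alone was called (1.6 ± 0.44, higher, adjusted p = 0.0465, at 0.791 to 3.31 CPM against 0.450 to 1.51 CPM). That is 1.96% of the list, near the 1.82% over all gene models. The hindbrain, neural plate and crest calls fell to 1 or 0 without stage 12.5 replicate 2, stage 13 replicate 1 or stage 14 replicate 2. Without stage 12 replicate 2 the hindbrain calls were 3 and the neural plate and crest calls 0, and without stage 14 replicate 1 both of these were 0 as well. The neural plate calls were 1 without stage 12 replicate 1 or stage 13 replicate 2.

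**Figure D3:**
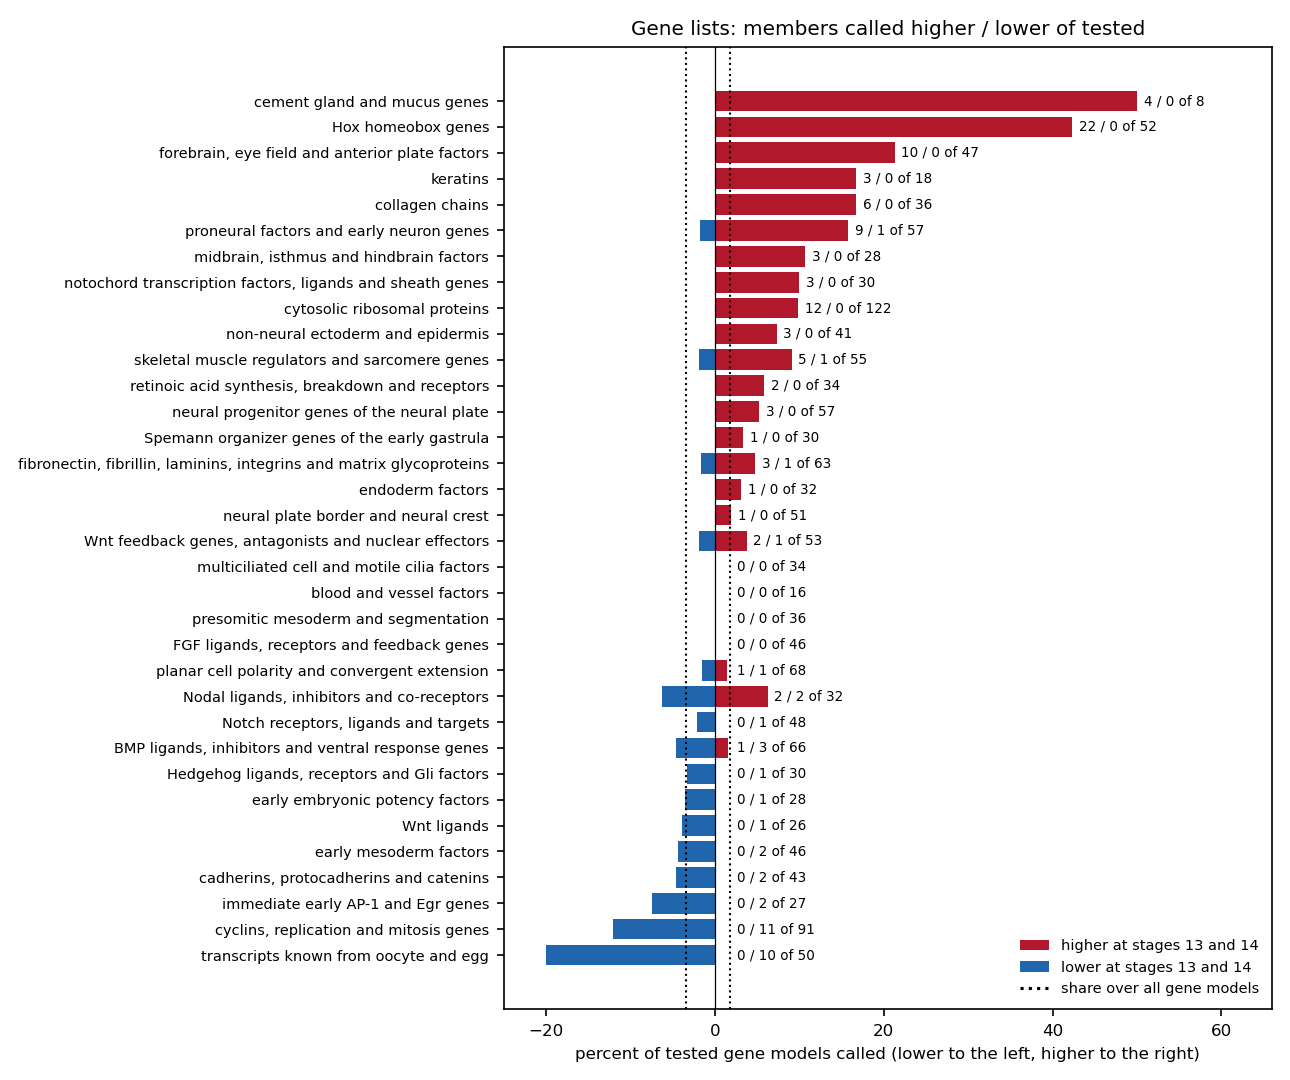
Percent of the tested gene models of each of 34 lists that were called higher (red, to the right) or lower (blue, to the left) at stages 13 and 14, with the counts printed as higher / lower of tested. The dotted lines mark the 1.82% and 3.37% over all gene models; hox, cement gland and anterior plate genes extend farthest to the right and oocyte and cell cycle genes farthest to the left.

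In the notochord and muscle lists, single collagen and contractile genes rose, and the early regulators were not called. The tissue in which these genes changed cannot be told from pooled explants. Of 30 notochord gene models 3 rose: col9a2.L, col9a3.L and the forkhead gene foxa1.L. These were 10% of the list, against 1.82% over all gene models. The type IX collagen gene col9a2.L had 42.3 and 29.8 CPM at stage 13 and 47.1 and 49.1 CPM at stage 14, against 17.4 and 6.99 CPM at stage 12 and 28.8 and 12.25 CPM at stage 12.5. The lowest later library lay just above the highest earlier one, and the change was 1.51 ± 0.29 (adjusted p = 0.0146). Brachyury, the T-box factor of early mesoderm and notochord, moved the other way without passing the test: t.L had 69.1 and 54.1 CPM at stage 13 and 45.8 and 40.8 CPM at stage 14, against 190 and 112 CPM at stage 12 and 86.1 and 110 CPM at stage 12.5 (-1.24 ± 0.48, adjusted p = 0.153). Both t.L and t.S were lower in all 4 later libraries. The organizer and notochord gene chrd.L averaged 517 CPM at stages 13 and 14 against 469 CPM at stages 12 and 12.5. The copies of not differed in sign, at -0.49 ± 0.21 for not.L and 0.07 ± 0.26 for not.S, as fitted on the log2 scale, and shh.L and shh.S were at 0.64 ± 0.32 and 0.08 ± 0.26. For foxa4.S, at -0.57 ± 0.32, all 4 later libraries lay below the earlier ones. None of these 6 was called. The notochord count was 6 without stage 12.5 replicate 1, 3 without stage 14 replicate 1, 2 without stage 12 replicate 1 or stage 13 replicate 2, and 0 without each of the other 4 libraries.

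Of 55 skeletal muscle gene models 5 rose and 1 fell (median 0.330). The rises were 9.09% of the list and the fall 1.82%, against 1.82% and 3.37% over all gene models. Cardiac-type actin (actc1.L), which embryonic skeletal muscle uses, had 78.7 and 25.5 CPM at stage 13 and 24.9 and 44.9 CPM at stage 14, against 16.8 and 5.43 CPM at stage 12 and 21.6 and 2.53 CPM at stage 12.5. The groups did not overlap, and stage 13 replicate 1 was the highest library (2.06 ± 0.52, adjusted p = 0.0417). The calcium pump gene atp2a1.L had 31.3 and 23.3 CPM at stage 13 and 10.9 and 55.3 CPM at stage 14, against 9.97 and 6.68 CPM at stage 12 and 10.9 and 7.62 CPM at stage 12.5 (1.73 ± 0.42, adjusted p = 0.0344). Stage 14 replicate 1 was barely above the earlier libraries. The methyltransferase gene smyd1.L, the troponin gene tnnc2.L and the myosin gene myh6.S also rose, and the creatine kinase gene ckb.L fell by 0.60 ± 0.13 on the log2 scale. The level of tnnc2.L was low, averaging 1.53 CPM at stages 13 and 14 against 0.329 CPM. Its stage 13 replicate 2, at 0.330 CPM, lay below stage 12.5 replicate 1 at 0.472 CPM. The determination factors myod1.S and myod1.L averaged 59.5 and 24.9 CPM at stages 13 and 14, against 42.2 and 18.1 CPM at stages 12 and 12.5, and were not called. None of 36 presomitic gene models was called in the main edgeR fit, where 1 had an unadjusted p under 0.05, or in DESeq2. In edgeR, 1 was called higher with a filter of at least 1 CPM in 4 libraries. The same count came from only the 20 DMZ libraries, and from the 8 libraries alone with a coefficient per stage. The muscle rises numbered 9 without stage 12.5 replicate 1, 7 without stage 14 replicate 1, 5 without stage 13 replicate 2, 2 without stage 12 replicate 1 and 0 without any of the other 4 libraries.

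Among 36 collagen gene models 6 rose and none fell (median 0.335). The type V chain col5a1.L had 25.9 and 21.2 CPM at stage 13 and 27.9 and 33.1 CPM at stage 14, against 9.61 and 4.34 CPM at stage 12 and 14.7 and 8.52 CPM at stage 12.5 (1.63 ± 0.31, adjusted p = 0.014, no overlap). Its S copy and the chains col24a1.L and col16a1.L were the others beside the type IX chains. Both copies of fibrillin 3, a microfibril protein, rose, although the call of fbn3.S was lost with any 1 of the 8 libraries left out and that of fbn3.L in all but 2 of the 8 cases. The gene fbn3.L had 292 and 141 CPM at stage 13 and 170 and 243 CPM at stage 14, against 99.6 and 31.8 CPM at stage 12 and 135 and 68.0 CPM at stage 12.5. Fibronectin did not pass the test, with fn1.S at 1372 CPM on average at stages 13 and 14 against 1433 CPM at stages 12 and 12.5 (-0.08). Of 63 matrix and integrin gene models, hapln3.L was the third rise and itgb6.L the only fall. The rises were 4.76% of this list and the fall 1.59%, against 1.82% and 3.37% over all gene models. Without stage 12 replicate 2, stage 12.5 replicate 2, stage 13 replicate 1 or stage 14 replicate 2 no collagen or matrix gene was called, and with any other library left out 5 to 7 collagen genes were.

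**Figure D4:**
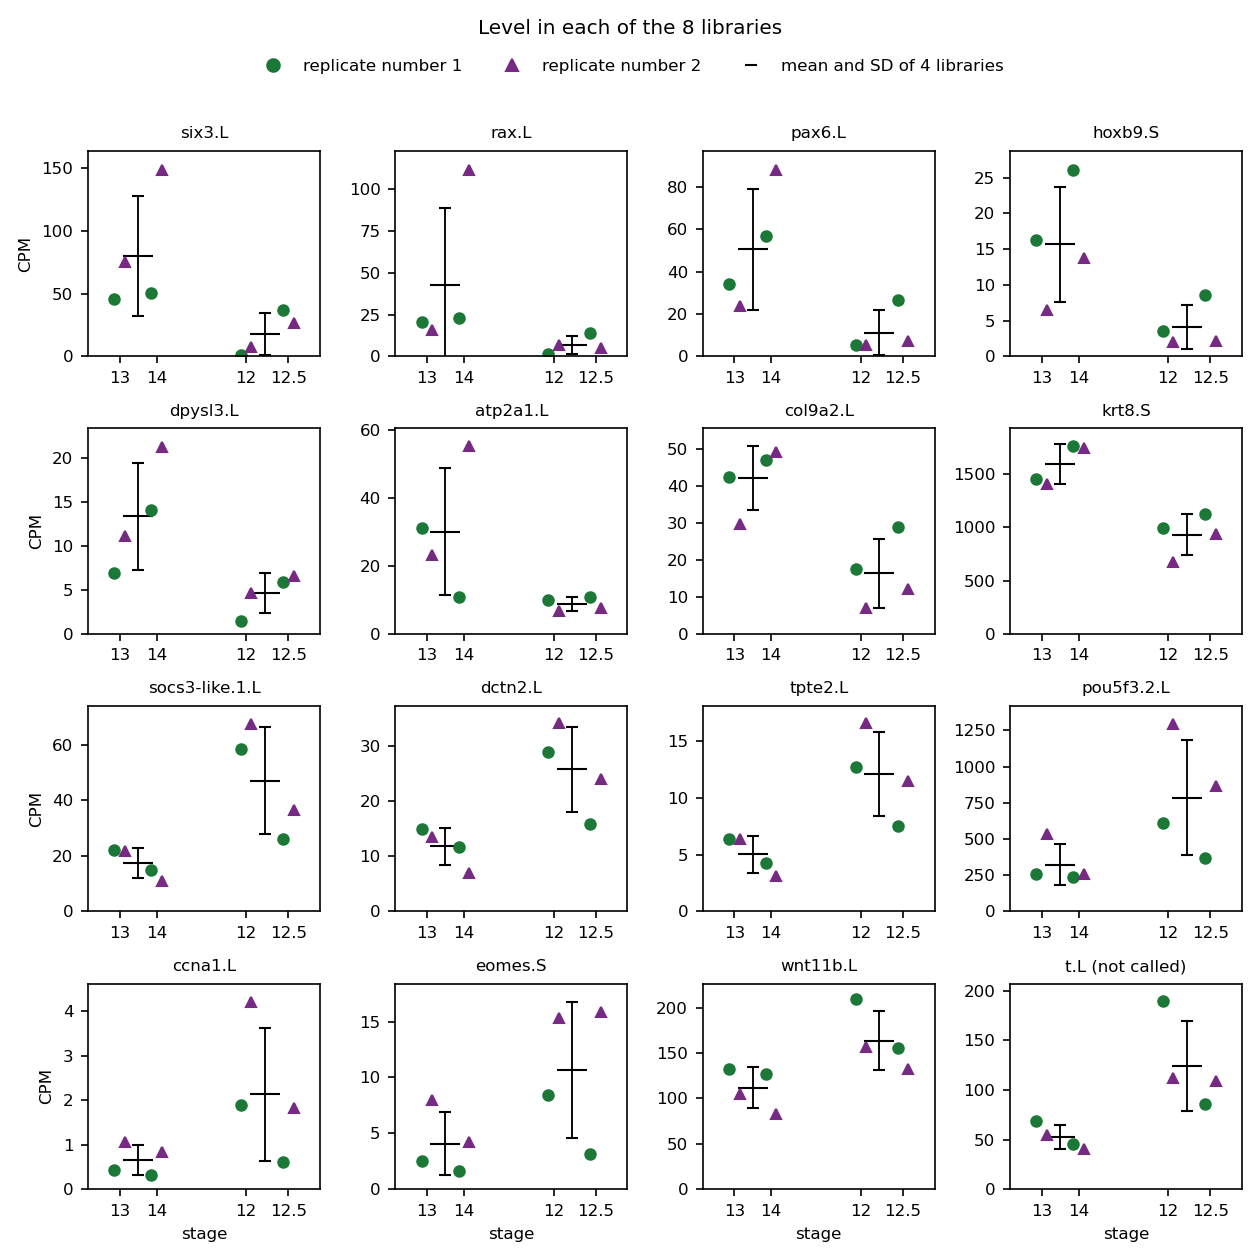
Level (CPM, y axis from 0) of 16 genes in each of the 8 libraries, with stages 13 and 14 on the left of each panel and stages 12 and 12.5 on the right. Circles are replicate number 1, triangles number 2, and black bars the mean and SD of 4 libraries; in six3.L, col9a2.L and krt8.S the later libraries all lie above the earlier ones, and in socs3-like.1.L, dctn2.L and tpte2.L all below.

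The keratin genes krt8 and krt18, typical of simple epithelia and also expressed in notochord, gave 3 rises of 18 keratin gene models. The same 3 were the calls among 41 epidermal ones. They were 16.7% and 7.32% of these lists, against 1.82% over all gene models. For krt8.S the values were 1451 and 1400 CPM at stage 13 and 1759 and 1744 CPM at stage 14, against 991 and 671 CPM at stage 12 and 1119 and 939.9 CPM at stage 12.5. This small change was without overlap (0.78 ± 0.14, adjusted p = 0.00898). The epidermal regulators tfap2a, grhl3, dlx3 and gata2 were not called in either copy, and tfap2a.L averaged 83.8 CPM against 150 CPM. The 3 calls were lost without stage 12 replicate 2, stage 12.5 replicate 2, stage 13 replicate 1 or stage 14 replicate 2, and 2 calls were made without stage 13 replicate 2 or stage 14 replicate 1.

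Of 122 cytosolic ribosomal protein gene models 12 were called higher and none lower, with a median log2 fold change of 0.236 and a positive value for 121 of the 122. For rpl7a.L the values were 279 and 240 CPM at stage 13 and 290 and 256 CPM at stage 14, against 233 and 179 CPM at stage 12 and 225 and 178 CPM at stage 12.5 (0.39 ± 0.08, adjusted p = 0.0122). All later libraries were higher. Upper quartile scaling gave 7 calls, DESeq2 34 and the fit without the replicate block 0. Without 1 library the count was 7 where stage 12.5 replicate 1 was missing, 5 for stage 12 replicate 1 or stage 14 replicate 1, 3 for stage 13 replicate 2 and 0 for each of the other 4.

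Genes outside these lists also rose. Those named here were picked by a rule that required no overlap between the groups. The lipocalin-type prostaglandin synthase gene ptgds.L had 8.2 and 9.06 CPM at stage 13 and 17.7 and 20.1 CPM at stage 14, against 1.66 and 2.84 CPM at stage 12 and 5.33 and 3.01 CPM at stage 12.5 (2.07 ± 0.32, adjusted p = 0.00699). The laminin-binding adhesion gene bcam.L rose by 1.92 ± 0.35, and ezrin (ezr.L), which links actin to the plasma membrane, by 1.53 ± 0.23.

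The largest falls among well expressed genes were smaller in fold than the largest rises, and their groups were all separate by the rule that picked them. The cytokine signalling suppressor named socs3-like.1.L had 22.2 and 21.8 CPM at stage 13 and 15.1 and 11.0 CPM at stage 14, against 58.4 and 67.7 CPM at stage 12 and 26.1 and 36.5 CPM at stage 12.5 (-1.43 ± 0.26, adjusted p = 0.0114). Both copies of the dynactin subunit gene dctn2, part of the complex that couples dynein to cargo, fell: dctn2.L had 14.9 and 13.5 CPM at stage 13 and 11.8 and 7.02 CPM at stage 14, against 29.0 and 34.1 CPM at stage 12 and 15.9 and 23.9 CPM at stage 12.5. The change was -1.14 ± 0.19 for dctn2.L and -1.39 ± 0.31 for dctn2.S. The phosphatase gene tpte2.L had 6.38 and 6.39 CPM at stage 13 and 4.31 and 3.11 CPM at stage 14, against 12.8 and 16.6 CPM at stage 12 and 7.55 and 11.5 CPM at stage 12.5 (-1.29 ± 0.18, adjusted p = 0.00434).

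The 14 falls named by rule also include the sorting nexin snx2.L (-1.2 ± 0.19), the regulatory subunit pik3r4.L of the endosomal phosphoinositide kinase (-1.2 ± 0.2) and the mitochondrial fusion gene mfn1.S (-1.01 ± 0.16). The histone gene hist1h2aa.L (-1.38 ± 0.21; a second gene model of that name changed by -1.35 ± 0.29), the chaperone gene dnajb1.L (-1.06 ± 0.26) and the oocyte growth factor gene gdf9.S (-0.97 ± 0.18) fell as well. The remaining 4 were smagp.L, dus1l.L, gramd1c.S and cr1b, with changes of -1.1 to -0.97.

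Of 50 gene models known from oocyte and egg 10 were lower and none higher, with a median log2 fold change of -0.575 and a positive value for 6. They include the zona pellucida genes zp2.L, zp3.S and zpd.L, the meiotic kinase gene mos.L, the egg cyclin gene ccna1.L, the oocyte linker histone h1foo.L, wee2.S, zar1.S, zar1l.L and velo1.L. The meiotic kinase gene wee2.S had 2.82 and 3.4 CPM at stage 13 and 1.52 and 1.66 CPM at stage 14, against 6.07 and 9.61 CPM at stage 12 and 3.12 and 4.54 CPM at stage 12.5. Stage 12.5 replicate 1 overlapped stage 13 replicate 2 (-1.29 ± 0.22, adjusted p = 0.00814). For zp2.L the values were 46.8 and 61.5 CPM at stage 13 and 43.4 and 50.6 CPM at stage 14, against 66.3 and 90.5 CPM at stage 12 and 49.5 and 84.3 CPM at stage 12.5 (-0.51 ± 0.12, adjusted p = 0.0261). The abundant oocyte elongation factor eef1a1o.S was not called, at 6691 CPM at stages 13 and 14 against 6544 CPM at stages 12 and 12.5 (0.03). The 10 calls became 11 without stage 12.5 replicate 1, 7 without stage 12 replicate 1, 4 without stage 14 replicate 1, 2 without stage 13 replicate 2, 1 without stage 12 replicate 2 and 0 without each of the other 3 libraries.

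Of 91 cyclin, replication and mitosis gene models 11 fell and none rose (median -0.156). The kinase and cyclin genes wee2.S and ccna1.L are also on the oocyte list. The mitotic phosphatase gene cdc25b.S had 56.0 and 161 CPM at stage 13 and 47.9 and 94.2 CPM at stage 14, against 144 and 184 CPM at stage 12 and 94.8 and 171 CPM at stage 12.5. Libraries of number 2 were high throughout, and the fall was seen within each number (-0.83 ± 0.18, adjusted p = 0.0191). The cyclin genes ccnb2.S, ccnd2.S, ccne1.L and ccne2.L, both copies of the survivin gene birc5.1, and the replication licensing genes mcm6.L and cdt1.S were the others. The proliferation markers mki67.L and top2a.L averaged 739 and 675 CPM at stages 13 and 14, against 824 and 701 CPM at stages 12 and 12.5, and were not called. The cell cycle count was 9 without stage 12.5 replicate 1, 8 without stage 12 replicate 1, 4 without stage 13 replicate 2 or stage 14 replicate 1, 2 without stage 12 replicate 2 and 0 without each of the other 3.

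Of 28 potency factors, pou5f3.2.L was the 1 called: it had 259 and 534 CPM at stage 13 and 237 and 262 CPM at stage 14, against 610 and 1296 CPM at stage 12 and 366 and 865 CPM at stage 12.5 (-1.22 ± 0.27, adjusted p = 0.0243). Within each number the later libraries were lower, while stage 13 replicate 2 exceeded stage 12.5 replicate 1. Among 46 early mesoderm gene models the T-box gene eomes.S (-1.44 ± 0.32, 4.08 CPM against 10.7 CPM) and the homeobox gene mix1.S (-2.58 ± 0.60, 0.894 CPM against 6.23 CPM) fell and none rose (median -0.237). The falls were 3.57% of the potency list and 4.35% of the mesoderm list, near the 3.37% over all gene models. Both copies of vegt were lower on average, vegt.L at 33.5 CPM against 85.3 CPM, without passing the test. These calls were lost in the absence of stage 12 replicate 2, stage 12.5 replicate 2, stage 13 replicate 1 or stage 14 replicate 2. The mesoderm calls were also lost without stage 12 replicate 1 or stage 13 replicate 2, and the count over the potency list became 0 without stage 13 replicate 2, 2 without stage 12 replicate 1 and 3 without stage 12.5 replicate 1.

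Of 66 BMP pathway gene models, the ligands admp2.L and bmp7.2.S and the protease gene tll2.L fell and the target id4.S rose (median -0.239). The falls were 4.55% of the list and the rise 1.52%, near the 3.37% and 1.82% over all gene models. The level of bmp7.2.S was low, at 0 to 0.264 CPM at stages 13 and 14 against 0.142 to 1.11 CPM, and the groups overlapped. The Admp-type ligand admp2.L had 5.18 and 10.2 CPM at stage 13 and 3.23 and 4.53 CPM at stage 14, against 12.1 and 30.7 CPM at stage 12 and 7.70 and 19.4 CPM at stage 12.5 (-1.58 ± 0.41, adjusted p = 0.0402). Of 32 Nodal gene models, the transcriptional partner foxh1.2.L and the co-receptor tdgf1.3.L fell (6.25% of the list), and another 6.25% rose. Among 26 Wnt ligand gene models wnt11b.L, the ligand that drives convergent extension, was called: 133 and 105 CPM at stage 13 and 126 and 83.3 CPM at stage 14, against 210 and 157 CPM at stage 12 and 156 and 132 CPM at stage 12.5 (-0.55 ± 0.12, adjusted p = 0.0178). Of 68 planar cell polarity gene models the other call was arhgef11.S, which rose by 0.78 ± 0.19. Of this list 1.47% rose and 1.47% fell, below the 1.82% and 3.37% over all gene models. Of the Wnt ligands 3.85% fell, near that 3.37%. The core components vangl2.L and prickle1.L averaged 305 and 144 CPM at stages 13 and 14, against 298 and 181 CPM at stages 12 and 12.5, and were not called. In the Wnt response list both copies of shisa2 rose (3.77%) and notum.L fell (1.89%).

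Of 43 cadherin and catenin gene models both copies of cdh3, the C-cadherin of the early embryo, fell. They were 4.65% of the list, near the 3.37% over all gene models. For cdh3.S the values were 285 and 281 CPM at stage 13 and 252 and 251 CPM at stage 14, against 354 and 362 CPM at stage 12 and 323 and 328 CPM at stage 12.5. The replicates of each stage lay close together, and the fall, of 0.36 ± 0.07 on the log2 scale, had an adjusted p of 0.0146. The Hedgehog co-receptor gene cdon.S, the Notch ubiquitin ligase gene mib2.S and the stress response genes atf3.S and gadd45a.L were the only calls of their lists, all lower. They were 3.33% of the Hedgehog list, 2.08% of the Notch list and 7.41% of the list of immediate early AP-1 and Egr genes. Over all gene models the share was 3.37%. No FGF gene was called of 46, no multiciliated cell gene of 34 and no blood or vessel gene of 16; 9, 7 and 2 of them had an unadjusted p under 0.05, and DESeq2 called 3, 1 and 0. Of 30 organizer gene models pkdcc.2.S alone rose (1.16 ± 0.28), and of 32 endoderm gene models foxa1.L, which is also a notochord gene. These were 3.33% and 3.12% of their lists, against 1.82% over all gene models. None of the BMP, Wnt, planar cell polarity, Hedgehog, Notch, cadherin, immediate early, organizer and endoderm calls was kept without stage 12 replicate 2. The Nodal falls were lost there as well. None of all these was kept without stage 12.5 replicate 2, stage 13 replicate 1 or stage 14 replicate 2. The call of arhgef11.S was also lost without stage 12 replicate 1, stage 13 replicate 2 or stage 14 replicate 1, that of pkdcc.2.S without stage 12 replicate 1 or stage 13 replicate 2, that of notum.L without stage 13 replicate 2 or stage 14 replicate 1 and that of cdon.S without stage 13 replicate 2. Without stage 13 replicate 2 and stage 14 replicate 1 in turn, 1 and 0 BMP falls and 1 and 0 cadherin falls were called. In the immediate early list, 1 and 1 falls were called there. The Nodal falls were 1 without stage 14 replicate 1, and the cadherin falls 1 without stage 12 replicate 1.

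Markers of other cell types were present in all 8 libraries. The summed level of 9 epidermal gene models was 776 to 1270 CPM at stages 13 and 14, against 578 to 975 CPM at stages 12 and 12.5, and that of 6 cement gland gene models 677 to 1470 CPM against 197 to 953 CPM. Endoderm markers summed to 9.45 to 23.1 CPM against 7.51 to 34.7 CPM over 8 gene models, blood and vessel markers to 6.62 to 13.3 CPM against 4.71 to 8.2 CPM over 5, and multiciliated cell markers to 28.3 to 146 CPM against 43 to 98.6 CPM over 7. Germ line markers summed to 4.18 to 6.79 CPM against 5.05 to 9.52 CPM. The defining markers sox17b, tal1 and hba1 were not found by symbol, and 3 endoderm and 3 blood models were under 1 CPM. So were 2 of 6 muscle, 2 of 9 epidermal, 1 of 7 multiciliated cell and 1 of 3 germ line models. The defining markers of the labelled tissue were present, with notochord markers at 759 to 1140 CPM against 981 to 1370 CPM, neural plate markers at 1260 to 2140 CPM against 1390 to 1660 CPM and muscle markers at 114 to 283 CPM against 64 to 144 CPM. Of all these markers 2 cement gland models and 1 muscle model were called. In bulk libraries such as these, more cells of a type and more RNA per cell cannot be told apart, and the part that tissue makeup plays in the results was not tested.

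In the edgeR fit of all 24 libraries no single step between neighbouring stages gave a call; edgeR on the 8 libraries alone called 3 gene models lower at stage 14 than at stage 13. The number of gene models at an unadjusted p under 0.05 was 988 for stage 12.5 over 12, 735 for stage 13 over 12.5 and 1243 for stage 14 over 13, and DESeq2 called 0, 0 and 4. Among these were pax2.L, which was higher at stage 14, and ppp2r2b.L, which was lower. For the genes called over the whole interval, the median log2 change of the 571 higher ones was 0.382, 0.453 and 0.386 over the 3 steps in order, and that of the 1058 lower ones was -0.352, -0.345 and -0.397. These medians describe genes selected on the same libraries, and single genes departed from them. In six3.L the 3 steps were 3.28, 0.79 and 0.63, and in cyp26c1.L 1.59, 0.52 and 0.26, so that the step within the earlier pair of stages was the largest. In hoxb9.S they were 0.79, 1.18 and 0.88, and in actc1.L 0.01, 2.21 and -0.32.

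**Figure D5:**
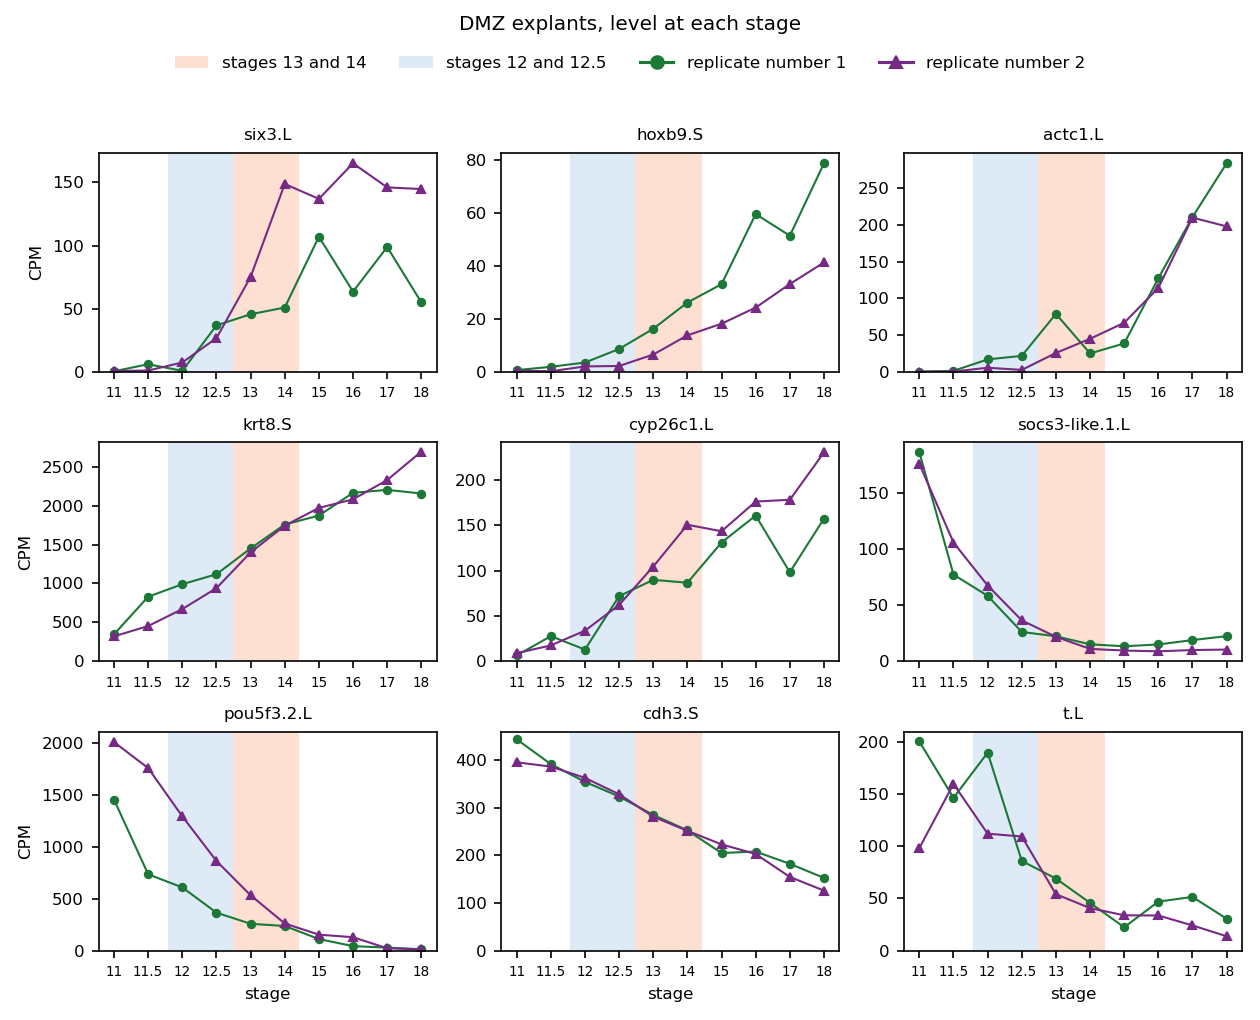
Level (CPM, y axis from 0) of 9 genes at each DMZ stage from 11 to 18 (x axis), with circles for replicate number 1 and triangles for number 2. Shading marks stages 13 and 14 and stages 12 and 12.5; hoxb9.S, actc1.L and krt8.S stand higher at stages 17 and 18 than within the shading, six3.L is highest at stage 16 in replicate number 2, and socs3-like.1.L has its highest values at stage 11.

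The change across the interval was also set against the one before it (stages 12 and 12.5 over 11 and 11.5) and the one after it (stages 15 and 16 over 13 and 14), which share libraries with it. A test of the difference in rate called no gene model against either, with 1061 and 763 at an unadjusted p under 0.05 and 1 gene model, LOC108697853, called by DESeq2 against each. The earlier interval held 2119 rises (6.76% of gene models) and 2732 falls (8.71%), 15.5% together, and the later one 117 rises (0.373%) and 219 falls (0.699%), 1.07% together. For six3.L the log2 change was 2.93 in the earlier interval, 2.75 in this one and 0.64 in the later one. For hoxb9.S the 3 values were 2.47, 2.01 and 1.13, for actc1.L 5.3, 2.06 and 0.97, and for socs3-like.1.L -1.53, -1.43 and -0.56. For pou5f3.2.L they were -0.98, -1.22 and -1.60.

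Stages 17 and 18 over 15 and 16 share no library with the interval, and were set beside it after its results were known. Of the 571 genes that rose, 112 (19.6%) also rose there, 7.56% of the 1481 that did so (4.72% of all gene models), and none fell. Of the 1058 that fell, 375 (35.4%) fell there too, 25.6% of the 1465 that did (4.67% of all), and 19 (1.8%) rose; 9.4% of all gene models were called there. In the regional comparison at stage 11, 8.66% of gene models differed between DMZ and VMZ. Here DMZ stage 11 replicate 2, which also entered the earlier interval above, held 7.38 M counts, the fewest of the 24 libraries. Of the 571, 55 (9.63%) were higher in DMZ than in VMZ and 26 (4.55%) lower, where 5.22% and 3.44% of all gene models were. Of the 1058, 24 (2.27%) were higher and 64 (6.05%) lower. Against the animal cap, 38 (6.65%) of the 571 were higher in DMZ and 15 (2.63%) lower, and 25 (2.36%) and 18 (1.7%) of the 1058. Over all gene models these shares were 3.81% and 1.59% (5.4% together). The caps were cut at stage 8 and the dorsal explants at stage 10.5, so region and time since cutting cannot be told apart there.

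Xenopus laevis is allotetraploid, and most genes exist as an L and an S copy (homeologs). In 5024 pairs with both copies tested, both copies rose in 30, the L copy alone was called higher in 105 and the S copy alone in 99. Both copies fell in 54, the L copy alone in 154 and the S copy alone in 159. The pairs that rose together include hoxa3, hoxa5, hoxa9, hoxa11, hoxb7 and hoxd3, six3, pax6, hesx1, ebf2, cyp26c1, col5a1, fbn3 and krt8, and those that fell together include cdh3, dctn2, snx2, gdf9, gnai1, ppp2r2b and birc5.1. A call in 1 copy alone does not show that the copies differ.

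The L to S ratio itself was tested with limma, and it changed in 80 of the 5024 pairs (1.59%, at an adjusted p under 0.05). In 2 pairs the copies were called in opposite directions: sssca1.L fell to 5.97 CPM on average at stages 13 and 14, against 10.4 CPM at stages 12 and 12.5, while sssca1.S rose to 28.0 CPM against 19.3 CPM (change of the log2 ratio -1.26 ± 0.19, adjusted p = 0.0105). The other was cnep1r1 (-1.22 ± 0.21, adjusted p = 0.0197). Among pairs of at least 10 CPM the ratio fell most for mospd2, fam109b, tmem221 and amfr, by 1.54, 1.53, 1.53 and 1.39 on the log2 scale. It rose most for cxorf57, srpk3, ccdc9 and nova1, by 1.56, 1.36, 1.23 and 1.22; nova1, a neuronal splicing factor gene, rose in its L copy (1.24) while its S copy was not called (0.01). These ratios depend on how the authors' counting split reads shared by both copies, which no label states. The count was 0 without stage 12.5 replicate 2 or stage 13 replicate 1, 1 without stage 12 replicate 2, 3 without stage 14 replicate 2, 17 without stage 14 replicate 1, 47 without stage 13 replicate 2, 60 without stage 12 replicate 1 and 166 without stage 12.5 replicate 1.

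The authors' deposited table lists 13912 of the tested gene models (44.4%) and gives each a cluster number from 1 to 5. Both values are given for 97% of the higher gene models, 554 of 571, and 97.6% of the lower ones, 1033 of 1058. Of those 554 higher, 462 (83.4%) are in cluster 4 and 92 (16.6%) in cluster 5. Of all gene models with a cluster number, 29.8% are in cluster 4 and 16% in cluster 5. The share in cluster 5 is near that of all clustered gene models. Of those 1033 lower, 949 (91.9%) are in cluster 2, 83 (8.03%) in cluster 1 and 1 in cluster 5. Clusters 2 and 1 hold 34.9% and 12.9% of all gene models with a cluster number. These clusters were made from the same libraries and are not independent of the calls.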

How the data were processed

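RNA was measured by sequencing of pooled explants. The deposited counts are whole-number counts per gene model and library, made by the authors; per the submitters' processing notes Trim Galore, kallisto and DESeq2 were used, while no source used here gives their versions, the genome build, the strand setting or the handling of reads shared by homeologs, paralogs or overlapping genes. Levels of near-identical copies are therefore uncertain. The authors' deposited table gives gene names, an adjusted p-value whose test is not stated there, and a cluster number. Of the gene names, 10759 end in .L and 7757 in .S, and 844 gene models share a name with another.

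All 24 libraries were fitted together in R 4.3.3 with edgeR 4.0.16 (filterByExpr by group with a minimum count of 10 and total of 15, TMM scaling, robust glmQLFit, glmQLFTest), with 1 coefficient per region and stage, 12 in all, and the replicate number as block, leaving 11 residual degrees of freedom. The contrast was the mean of stages 13 and 14 minus the mean of stages 12 and 12.5, with Benjamini-Hochberg adjustment over all gene models. The biological coefficient of variation was 21.4%. The L to S ratios, log2 of counts plus 0.5, were tested with limma 3.58.1. DESeq2 1.42.0 served as an alternative. Same-numbered libraries deviated together in each of the 6 pairs of stages (r = 0.403 to 0.612, from the data, not the labels). On simulated data with the interval's design, 93.9% of 4-fold, 52.2% of 2-fold and 8.96% of 1.5-fold changes were recovered among 31005 genes, with 2 false calls of 105. There the 8 libraries shared 1 mean per gene, without the offset between replicate numbers or the steps within a pair of stages. Recovery and false calls may therefore differ in the real libraries.

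Genes named are the 14 called rises and falls of largest fold with at least 10 CPM and no overlap between the groups of 4 libraries, from each list the called members with the lowest p (at most 4), preset anchor genes such as t, chrd and sox2, and the 4 ratio changes of largest size each way; other named genes illustrate a list. The 34 lists and the members were chosen with earlier results of these data known. No set test was run. No sequences are printed. Some results of the lists are not reported here.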

Additional observations from a re-analysis of the deposited data

Results flagged for a closer look

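Each group of 4 libraries of the genes named by rule was examined for 1 library far from the other 3, by its gap to the nearest divided by the group's range, against Dixon's 95% critical value. This flagged 18 of 280 groups, and chance flags about 1 in 20. No explanation for these libraries was tested.

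Stage 12.5 replicate 1 stood high against the other 3 libraries of stages 12 and 12.5 in 6 of the 18, all genes that rose: agr2.L (ratio 0.925, 68.8 CPM against 11.1 to 15.4 CPM), pax6.L (0.917, 26.9 CPM against 5.35 to 7.13 CPM), dmbx1.L (0.912), pitx1.L (0.907, 46.0 CPM against 2.08 to 6.16 CPM), isl1.L (0.886) and nkx6-2.S (0.879). Stage 14 replicate 2 stood high in both copies of the eye field gene rax: 112 CPM against 15.8 to 22.7 CPM for rax.L (0.927) and 68.8 CPM against 6.54 to 11.4 CPM for rax.S (0.921).

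Stage 13 replicate 2 was high for pou5f3.2.L (0.918, 534 CPM against 237 to 262 CPM) and low for foxa1.L (0.87) and krt18.L (0.921). Stage 12 replicate 2 was high for cr1b (0.945) and, at 0.139 CPM against 0, for en2.S (1.0), and low for krt18.L (0.863). Stage 12 replicate 1 was high for cdh3.L (0.883) and low for a gene model of zic1.L (0.913), stage 12.5 replicate 2 was high for otx2.S (0.909), and stage 14 replicate 1 was low for prickle1.S (0.896).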

How the results depend on the processing

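Alternatives moved the count of 1629 calls. No called gene changed direction with a library left out, although these genes had been selected with all 8 libraries included. With RLE or upper quartile scaling, no filter, no robust step, the stricter filter or only the 20 DMZ libraries it stayed between 1616 and 1974. Without the replicate block it was 74 (24 higher and 50 lower), although same-numbered libraries deviate together. The 8 libraries alone gave 2876 (1235 and 1641) with a coefficient per stage, and 1 (LOC108699649; 1 and 0) with a coefficient per pair of stages. DESeq2 gave 3140 (1317 and 1823), a test against 1.5-fold 0 (0 and 0), and summed L and S counts 1230. Leaving out 1 library gave 12 to 1901 calls, 3 to 702 higher and 9 to 1199 lower. Number 1 alone gave 0 (0 and 0) and number 2 alone 16 (2 and 14); both fits were added after seeing the data. Of the 1629, 1569 were also called by DESeq2 and 74 without the block; of 92 named calls 92 and 12 were. The cause of these losses was not tested.

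The 35.1% share of rises among calls ran from 31.7% to 42.9% over the scalings, filters and tools that made more than 100 calls from all libraries or from the 8, and from 25.9% (without stage 12 replicate 1) to 47.3% (without stage 12 replicate 2) in the fits that made more than 100 calls with 1 library left out. For stage 14 over 13 the count was 3 with the 8 libraries alone (LOC108703072, LOC108703073 and LOC108703074) and 4 in DESeq2. The rate difference gave 1 call in DESeq2 against the preceding interval and 1 against the following one, and 0 to 10 with a library left out of the latter. The 80 ratio calls became 1 without the block, and 0 to 166 with a library left out. In simulated data with 2 libraries a stage and no offset between replicate numbers in the 8 libraries, changes of 1.5-fold were mostly beyond detection.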

Other observations

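The epidermal ionocyte and ectoderm factor foxi1 moved in opposite directions in the 2 replicate numbers. In number 1, foxi1.L had 1.1 CPM at stage 13 and 5.46 CPM at stage 14, against 2.13 CPM at stage 12 and 0.0944 CPM at stage 12.5. In number 2 it had 1.32 and 0.0592 CPM, against 20.5 and 7.03 CPM. The mean log2 difference was 2.1 in number 1 and -4.86 in number 2 for foxi1.L, and 2.02 and -4.46 for foxi1.S, and neither copy was called (adjusted p = 0.696 and 0.793).

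The genes described here were chosen after their values were seen. The neural crest and dorsal neural gene pax3.S was higher in every library of number 1 than in any of number 2. It had 29.0 CPM at stage 13 and 32.4 CPM at stage 14 in number 1, against 16.6 CPM at stage 12 and 19.8 CPM at stage 12.5. In number 2 it had 2.37 and 9.69 CPM, against 7.21 and 3.18 CPM. The mean log2 difference between the pairs of stages was 0.758 in number 1 and 0.006 in number 2. The organizer gene gsc.L was instead higher in number 2 at every stage of the interval, with 6.59 and 9.95 CPM at stages 13 and 14 against 4.79 and 8.07 CPM at stages 12 and 12.5. In number 1 it had 5.12 and 0.997 CPM against 0.73 and 1.70 CPM.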
